A study of Mus musculus with 12 samples.

Results

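The potassium channel subunit genes were read here as the protein-coding mouse genes whose symbol begins with Kcn, without the Kcnip genes and the antisense genes named after channel genes. A gene was kept when its normalised read count, the unit of the deposited table, reached 10 in 3 or more of the 12 libraries. Of 90 such genes in the table, 40 were kept, among 13865 genes of any kind that passed the same filter and 51912 genes listed in all. The filter used levels over all libraries and no difference between groups, but the gene family was chosen with earlier results of these data known. Of the 40 members, 32 were at 10 or above in every library and 8 in fewer. Kcnk1 passed through the WT males alone and Kcna1 through WT libraries alone, so that for both a lower LCHADD level is partly built into their selection.

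Potassium channels let potassium leave the cell and so end the cardiac action potential and hold the resting potential. Voltage-gated subunits of the Kv families open during the action potential, inward rectifiers of the Kcnj family set the resting potential or answer to ATP or acetylcholine, and tandem-pore-domain channels of the Kcnk family carry background current. In the mouse ventricle, fast repolarisation rests mainly on the transient outward current of Kcnd2 and Kcnd3 and on slowly inactivating currents such as that of Kcna5, while the delayed rectifiers of Kcnh2 and Kcnq1, which dominate in larger mammals, are small.

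RNA-seq was made from untreated mouse heart ventricles of 4 groups of 3 libraries, namely LCHADD females, WT females, LCHADD males and WT males. LCHADD is the usual abbreviation of deficiency of long-chain 3-hydroxyacyl-CoA dehydrogenase, a fatty acid oxidation activity of the mitochondrial trifunctional protein alpha subunit, which Hadha encodes. The labels give the genotype by this name only, with no allele, strain or age, and write the sex in a field meant for a cell line. They do not say that the libraries come from separate animals, so the p-values below measure the spread between these libraries, which may be partly technical.

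Each library held between 15.6 M and 23.2 M reads, of which 31.0% to 37.9% in LCHADD and 27.5% to 32.7% in WT fell on genes of the mitochondrial genome. Hadha averaged 26279 ± 1804 in LCHADD and 23387 ± 1513 in WT (SD, n = 6 each) normalised reads. It passed in the mean of both sexes with overlapping genotypes (log2 change 0.17, SE 0.05, adjusted p = 0.013), which checks no allele that leaves its RNA in place. The ventricular label was borne out by markers, since the summed level of 8 cardiomyocyte genes was 537410 to 895880 in LCHADD and 911400 to 983090 in WT, while 4 atrial genes summed to 131 to 285 in LCHADD and 177 to 272 in WT. Of the 8 cardiomyocyte markers, 5 were lower in LCHADD in the mean of both sexes, against 20.6% of all genes, and their part in the results below was not tested. In such bulk tissue, fewer cells of a type and less RNA per cell cannot be told apart. One library stood apart. LCHADD female 2 deviated most from its group over all genes, with a root mean square log2 deviation of 0.36, against 0.22 to 0.31 in the other 11 libraries. It also had the lowest summed cardiomyocyte level and the lowest value of all 12 libraries for 12 of the 40 members, so results that rest on it are given with and without it.

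Most potassium channel genes that differed were lower in LCHADD ventricles. In the mean of both sexes, 20 of the 40 members were lower and 4 were higher at an adjusted p under 0.05 (limma on log2 of the normalised read count plus 1, Benjamini-Hochberg over the 13865 genes). Of all genes tested, 20.6% were lower and 20.3% higher, so the share of lower members, 50%, stood above that background and the share of higher members, 10.0%, below it. The median log2 change was -0.39 over the members and 0.00 over all genes tested, and 33 of the 40 members had a change below 0. In females, 19 members were lower and 3 higher, against backgrounds of 17.2% and 16.7%. In males, 12 were lower and 3 higher, against 7.77% and 7.71%. Both in females and in males, 11 members were lower, as were 6.69% of all genes, and 3, Kcnc1, Kcne1 and Kcnj4, were higher, as were 6.72% of all genes. All 6 LCHADD libraries lay below all 6 WT libraries for 13 members, a pattern seen in 9.91% of all genes, and above them for 2, Kcne1 and Kcnj4, a pattern seen in 9.82%. A change of at least 1.5-fold that passed the test was found for 13 members on the lower side and 3 on the higher side, with backgrounds of 7.46% and 7.2%. Kcnk1 and Kcna1, whose lower LCHADD level is partly built into their selection, are among the 20 lower members and the 13 lower by 1.5-fold. Kcnk1 is also among the 19 lower in females, the 12 lower in males, the 11 lower in both and the 13 without overlap. Without LCHADD female 2, 25 members passed in the mean of both sexes, 18 in females and 17 in males, and without LCHADD male 1 the count in males was 8. Of the 11 lower in both sexes, Kcna2 and Kcnj5 lost their female call without LCHADD female 2 (limma adjusted p = 0.056 and 0.17). Without WT female 1 or WT female 3, the female calls of Kcna2, Kcnj5 and Kcnj8 were lost. The male calls of Kcnj3 and Kcnj5 were lost when any single male library was left out. Those of Kcna5, Kcnj8, Kcnk3 and Kcnv2 were lost without LCHADD male 1. With each sex fitted alone, 13 members were lower and 3 higher in females, where 1747 and 1689 of all 13865 genes were. In males that fit gave 16 lower and 3 higher members, and 1711 and 1631 of all genes. The order of the sexes by count thus changed with the fit. When libraries were scaled by their reads on nuclear genes, the split over all genes in females was 2884 higher and 1953 lower, against 2314 and 2378 with the deposited scaling, and the members split into 4 higher and 14 lower.

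**Figure D1:**
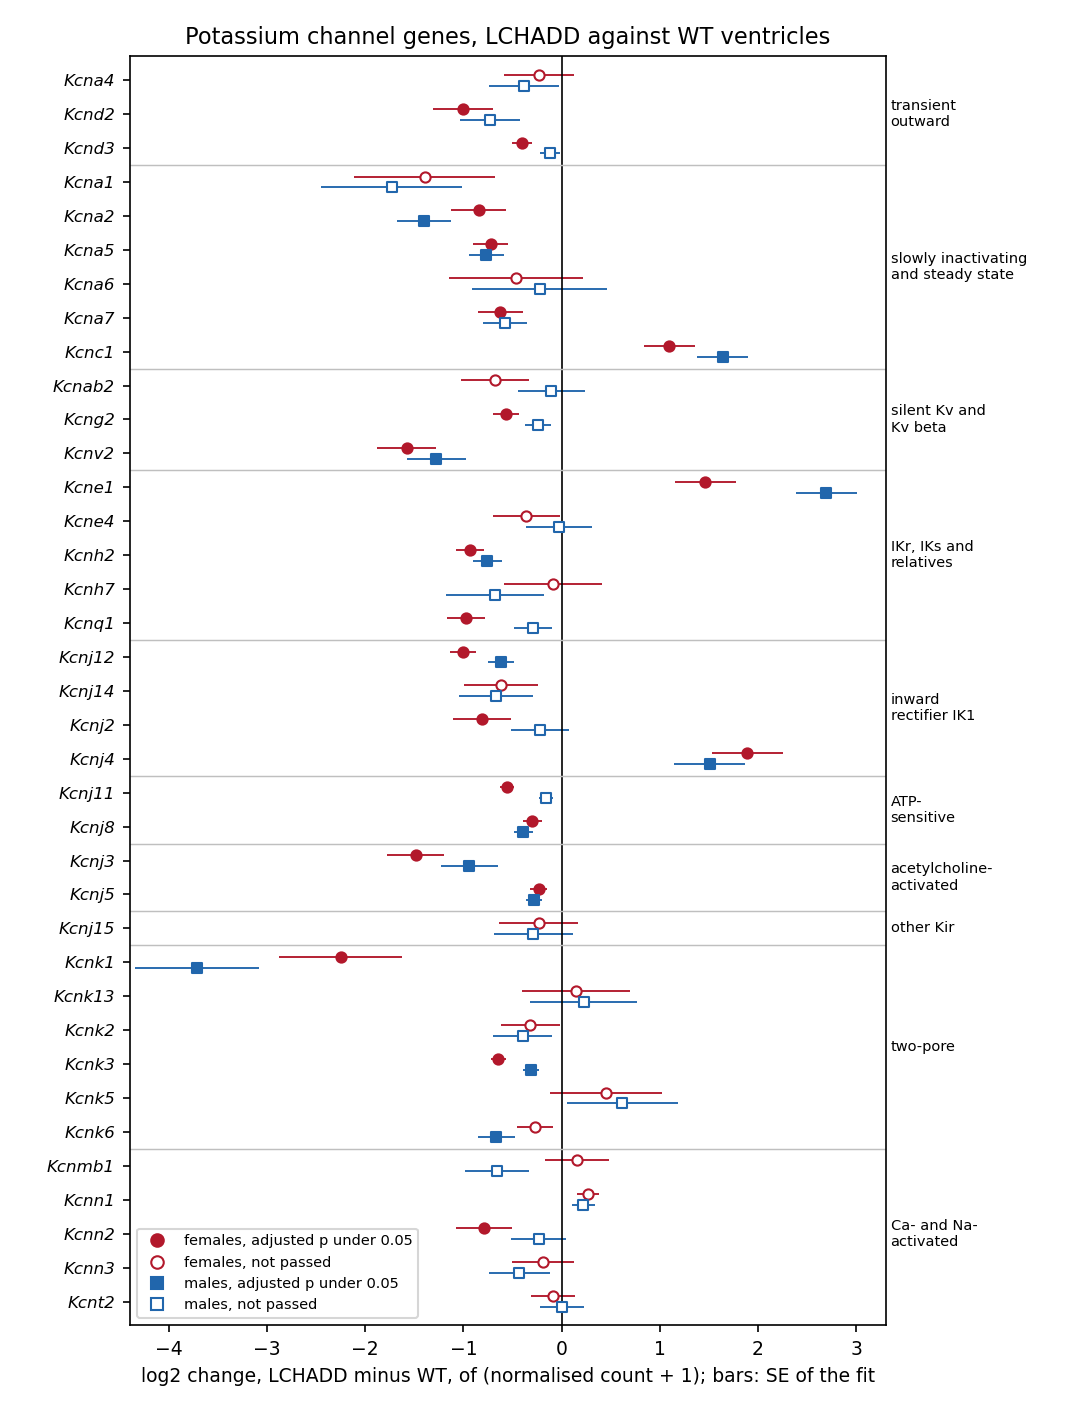
Log2 change of 37 of the 40 potassium channel genes, LCHADD minus WT, in females (circles) and males (squares), grouped by current; bars are standard errors of the fit and filled symbols passed an adjusted p under 0.05. Most points lie left of 0, while Kcnc1, Kcne1 and Kcnj4 lie to the right in both sexes.

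The promoter windows of the members that passed with the smallest adjusted p in each direction, among those with a window in the RefSeq table, are shown to set the lower Kcnj12 and Kcnh2 beside the higher Kcnj4 and Kcnc1. Each runs from 250 bases before to 50 bases after the gene's start, 5′ to 3′ on the gene's strand in build GRCm38.p6, with CG dinucleotides in capitals. The reads were processed on a later build, so these coordinates are not those of the authors' alignment.
Kcnj12: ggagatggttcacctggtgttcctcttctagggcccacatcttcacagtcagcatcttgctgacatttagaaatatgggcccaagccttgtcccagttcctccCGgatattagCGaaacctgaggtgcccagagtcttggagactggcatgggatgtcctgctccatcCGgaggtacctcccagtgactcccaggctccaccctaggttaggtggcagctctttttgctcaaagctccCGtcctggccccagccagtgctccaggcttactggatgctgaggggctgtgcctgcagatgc
Kcnh2: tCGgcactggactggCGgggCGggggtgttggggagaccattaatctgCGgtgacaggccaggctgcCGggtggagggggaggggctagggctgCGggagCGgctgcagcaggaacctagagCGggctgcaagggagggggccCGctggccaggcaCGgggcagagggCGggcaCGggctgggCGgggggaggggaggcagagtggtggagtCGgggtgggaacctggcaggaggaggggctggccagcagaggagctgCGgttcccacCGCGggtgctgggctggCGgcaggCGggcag
Kcnj4: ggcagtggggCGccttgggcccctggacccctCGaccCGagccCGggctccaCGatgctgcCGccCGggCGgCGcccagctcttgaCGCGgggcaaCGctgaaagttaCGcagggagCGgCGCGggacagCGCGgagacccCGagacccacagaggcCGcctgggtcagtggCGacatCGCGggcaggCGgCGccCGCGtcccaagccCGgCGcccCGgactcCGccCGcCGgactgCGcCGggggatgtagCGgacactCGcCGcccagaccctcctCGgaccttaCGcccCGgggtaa
Kcnc1: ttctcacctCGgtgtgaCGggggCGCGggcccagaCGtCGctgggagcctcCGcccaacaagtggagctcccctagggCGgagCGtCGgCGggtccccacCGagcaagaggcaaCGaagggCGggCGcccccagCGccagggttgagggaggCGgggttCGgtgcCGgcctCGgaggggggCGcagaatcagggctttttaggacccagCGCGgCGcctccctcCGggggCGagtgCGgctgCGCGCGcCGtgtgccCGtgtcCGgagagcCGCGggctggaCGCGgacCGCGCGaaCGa
The Kcnj12 window lies at chr11:61065554-61065853 on the plus strand and holds 4 CG dinucleotides at 57.0% G and C. The Kcnh2 window, at chr5:24329542-24329841 on the minus strand, holds 19 at 74.3%. Those of the higher genes hold 41 each, Kcnj4 at chr15:79505192-79505491 on the minus strand with 76.0% G and C and Kcnc1 at chr7:46396218-46396517 on the plus strand with 74.7%. Windows were found for 27 of the 40 members, with a median of 11 CG dinucleotides, against 7 over 27025 genes. The 11 lower members with a window had a median of 10 (range 4 to 31) and the 3 higher ones a median of 41 (range 13 to 41), so the ranges overlapped. Letters were searched on both strands, and a gene was counted when any of its windows held a match. TGATGNAA, the core of the C/EBP-ATF composite element, was found for 0 of the 27 members and 4.51% of all genes with a window. The nuclear receptor half-site AGGTCA was found for 0 and 18.1%. CACGTG, an E-box, was found for Kcne4, Kcnj2 and Kcnk5, that is for 3 of the 27 members and 8.09% of all genes. TATAAA was found for Kcnj15 alone among the members and for 15.7% of all genes. These matches are descriptions of the letters and not of binding.

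Per kb of exon, the most abundant member in both genotypes was Kcnk3, an acid-sensitive background channel, at 974 ± 105 in LCHADD and 1353 ± 88.5 in WT normalised reads per kb (SD, n = 6 each). Kcnj11, the pore of the sarcolemmal ATP-sensitive channel, was next at 847 ± 102 in LCHADD and 1081 ± 61.4 in WT. The order of the 7 most abundant members was the same in LCHADD and WT, running on through Kcng2, Kcnj5, Kcnh2, Kcnj8 and Kcnq1, but several neighbours in that order did not differ beyond their spread. In LCHADD the library ranges overlapped between Kcnk3 and Kcnj11, between Kcng2 and Kcnj5, and between Kcnh2, Kcnj8 and Kcnq1. In WT they overlapped from each gene to the next among Kcng2, Kcnj5 and Kcnh2, and among Kcnj8, Kcnq1 at 212 ± 15.8 and Kcnj3 at 211 ± 7.51 per kb. Below these, Kcne1 stood at rank 9 of 40 in LCHADD and 18 in WT, with 104 ± 45.3 in LCHADD and 26.6 ± 16.3 in WT per kb. Kcnj4 ranked 16 in LCHADD and 24 in WT, and Kcnc1 22 in LCHADD and 30 in WT. Lowest per kb in WT was Kcnh7, at 0.846 ± 0.272 in LCHADD and 1.18 ± 0.601 in WT.

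**Figure D2:**
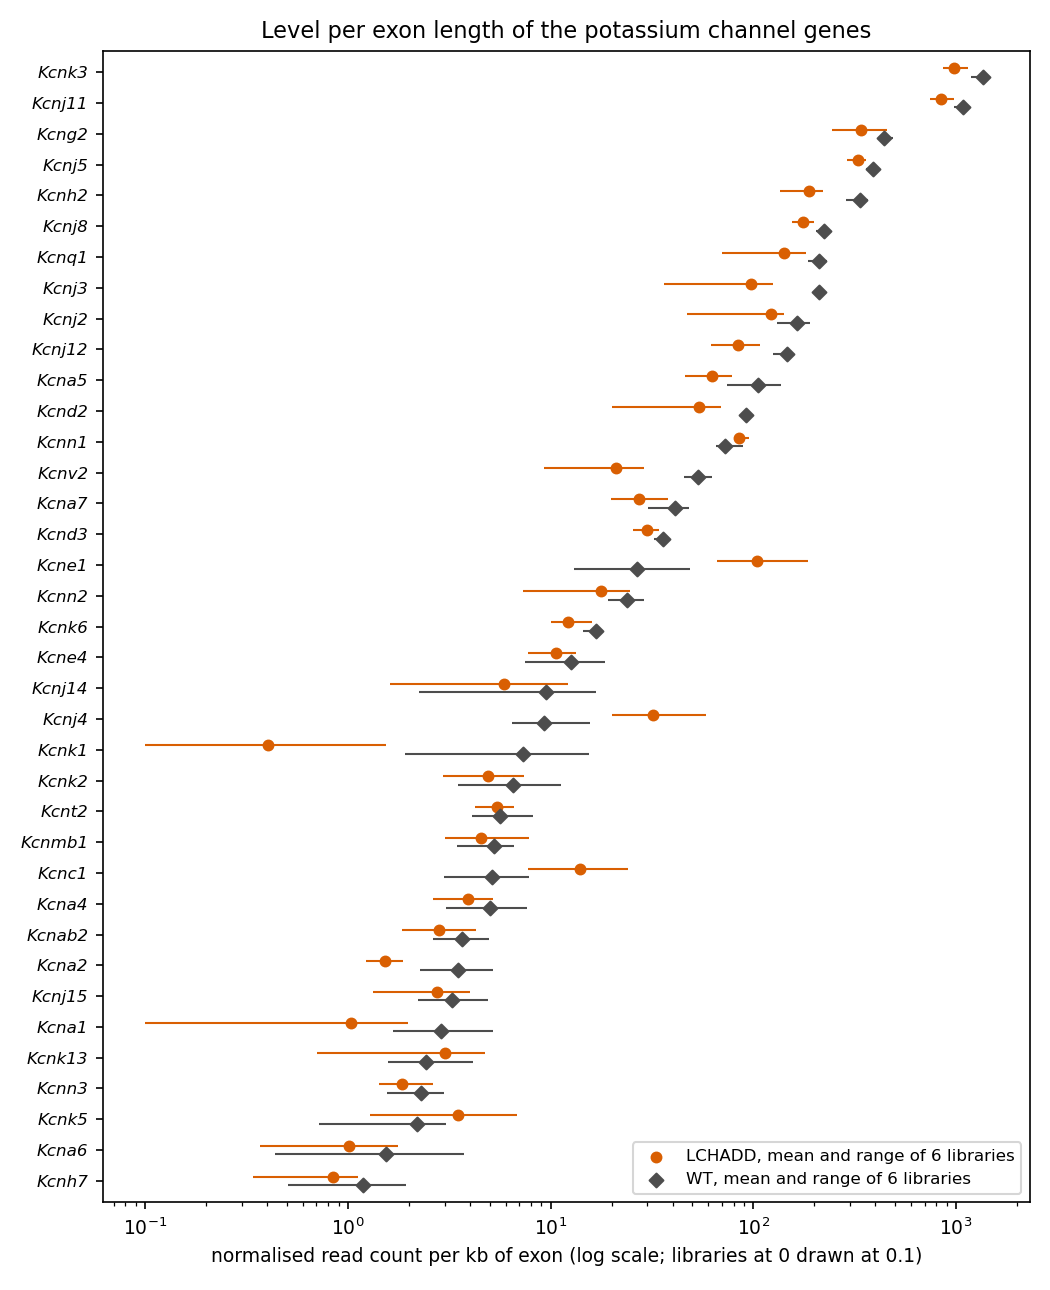
Normalised read count per kb of exon of 37 of the 40 potassium channel genes on a log axis, ordered by the WT level, as mean (symbol) and range (line) of 6 LCHADD and 6 WT libraries. LCHADD points lie left of WT points for most abundant genes, and Kcne1, Kcnj4 and Kcnc1 stand out on the right.

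Of the transient outward current, which drives the first phase of repolarisation, 3 of 5 genes were measured and 2 were lower in LCHADD in the mean of both sexes. The background for this and each later count by current was 20.6% of all genes lower and 20.3% higher. Kcnd2 (ENSMUSG00000060882, chromosome 6), a pore subunit of the fast component, had normalised read counts of 325, 104 and 358 in LCHADD females, against 455, 477 and 453 in WT females, and 269, 301 and 308 in LCHADD males, against 489, 501 and 468 in WT males. Every LCHADD library was below every WT library, and LCHADD female 2 was far below the others. The mean log2 change was -0.87 (SE 0.22, limma adjusted p = 0.0051), and -0.58 (adjusted p = 1.1e-06) without LCHADD female 2. With all libraries, the change of Kcnd2 in males was -0.73 and did not pass (limma adjusted p = 0.13). Kcnd3, the other pore subunit of that component, had 244, 276 and 271 in LCHADD females, against 321, 361 and 366 in WT females, and 297, 329 and 309.5 in LCHADD males, against 359, 344 and 310.5 in WT males. The female genotypes did not overlap and the male ones did, and the mean difference was smaller (log2 change -0.26, SE 0.07, adjusted p = 0.0093). Kcna4, the pore of the slow component, had 24.1, 25.2 and 12.7 in LCHADD females, against 27.4, 26.0 and 18.0 in WT females, and 17.7, 17.2 and 17.1 in LCHADD males, against 21.9, 37.0 and 14.7 in WT males. Its genotypes overlapped and it did not pass (log2 change -0.31, SE 0.25, adjusted p = 0.35). Kcnc4 and Kcnd1 were below the filter.

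The slowly inactivating and steady-state currents carry much of the later repolarisation in mouse ventricles. Of 8 measured genes on that list, 6 were lower and 1 higher in LCHADD in the mean of both sexes, against 20.6% and 20.3% of all genes. The 6 include Kcna1, which passed the filter through WT libraries alone. Kcna5 (ENSMUSG00000045534, chromosome 6), the pore of the faster component, had 177, 202 and 224 in LCHADD females, against 258, 359 and 391 in WT females, and 132, 164 and 176 in LCHADD males, against 212, 311 and 287 in WT males normalised reads. Genotypes were separate within each sex and overlapped across sexes, since the highest LCHADD female exceeded the lowest WT male, and the LCHADD mean was 59.1% of WT (log2 change -0.74, SE 0.13, adjusted p = 0.00025). Kcna2, a relative of Kcna5 best known from neurons, was low in all libraries, with 17.5, 19.4 and 22.2 in LCHADD females, against 49.3, 26.9 and 35.1 in WT females, and 14.6, 18.3 and 17.1 in LCHADD males, against 61.8, 38.2 and 39.8 in WT males. It was lower in every LCHADD library (log2 change -1.12, SE 0.20, adjusted p = 0.00036).

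The one gene of this list that rose was Kcnc1 (ENSMUSG00000058975, chromosome 7), a fast delayed rectifier best known from fast-spiking neurons. It had 87.5, 72.8 and 87.7 in LCHADD females, against 57.1, 33.8 and 28.2 in WT females, and 158, 228 and 158 in LCHADD males, against 56.8, 74.0 and 43.2 in WT males normalised reads. LCHADD was higher within each sex, and males were higher than females in LCHADD, and the lowest LCHADD female was below the highest WT male. The LCHADD mean was 270.28% of WT (log2 change 1.37, SE 0.18, adjusted p = 3e-05). Kcna7, a Kv subunit of heart and skeletal muscle, had 68.9, 50.5 and 43.3 in LCHADD females, against 103, 83.2 and 65.9 in WT females, and 60.4, 82.4 and 50.1 in LCHADD males, against 93.6, 85.1 and 106 in WT males and fell (log2 change -0.60, SE 0.16, adjusted p = 0.008). Kcna1, best known from axons, was near the filter, at 0 to 9.51 in LCHADD libraries and 7.97 to 24.8 in WT libraries. Its call in the mean of both sexes (log2 change -1.56, SE 0.51, adjusted p = 0.023) was lost without LCHADD female 1 (adjusted p = 0.058), WT female 3 (0.066) or WT male 3 (0.054). As Kcna1 passed the filter through WT libraries alone, its p-value is no independent test of a lower level. Kcna6, which shares 39.6% of its exon bases with an antisense gene, overlapped at 2.19 to 10.6 in LCHADD libraries and 2.59 to 22.3 in WT libraries and did not pass.

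Silent subunits form no channel alone and change the gating of other Kv channels. Kcnv2, one of these, had 120.3, 47.6 and 117 in LCHADD females, against 249, 232 and 319 in WT females, and 76.1, 134 and 147 in LCHADD males, against 276, 308 and 254 in WT males normalised reads. It was lower in every LCHADD library, at 39.2% of the WT mean (log2 change -1.43, SE 0.21, adjusted p = 8.6e-05; -1.21, adjusted p = 1.3e-06, without LCHADD female 2, the lowest). Kcng2, another, had 915, 731 and 1024 in LCHADD females, against 1400, 1268 and 1258 in WT females, and 1071, 1361 and 971 in LCHADD males, against 1458, 1238 and 1293 in WT males. LCHADD was lower in every female library and overlapped WT in males (log2 change -0.40, SE 0.09, adjusted p = 0.0026). Without LCHADD female 2, the lowest library of Kcng2, the change was -0.34 (limma adjusted p = 0.0015). Of the exon bases of Kcng2, 9.1% also belong to a gene on the opposite strand, so its reads are uncertain. The beta subunit Kcnab2 did not pass, at 10.3 to 23.9 in LCHADD libraries and 14.7 to 27.7 in WT libraries. The other 10 genes of this list were below the filter.

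Of 6 measured genes of the delayed rectifiers, their relatives and accessory subunits, 2 were lower and 1 higher in the mean of both sexes. Of all genes, 20.6% were lower and 20.3% higher there. Kcnh2 (ENSMUSG00000038319, chromosome 5), the pore of the rapid delayed rectifier IKr, had 841, 654 and 1069 in LCHADD females, against 1640.2, 1486 and 1690.2 in WT females, and 1057, 974 and 865 in LCHADD males, against 1791, 1393 and 1717 in WT males normalised reads. All LCHADD libraries lay below all WT libraries, at 56.2% of the WT mean (log2 change -0.84, SE 0.10, adjusted p = 1.3e-05). Without LCHADD female 2, its lowest library, the change was -0.76 (limma adjusted p = 2.9e-07). Kcnq1 (ENSMUSG00000009545, chromosome 7), the pore of the slow delayed rectifier IKs, had 558, 287 and 612 in LCHADD females, against 918, 944 and 863 in WT females, and 621, 741 and 662 in LCHADD males, against 837, 761 and 877 in WT males. Genotypes were again separate, with LCHADD female 2 the lowest library (log2 change -0.63, SE 0.14, adjusted p = 0.002 in the mean of both sexes). The change was -0.46 (adjusted p = 9.3e-06) without that library, and 2.96% of the exon bases of Kcnq1 are shared with its antisense gene Kcnq1ot1. With all libraries, the change of Kcnq1 was -0.98 in females (limma adjusted p = 0.0015) and -0.29 in males, where it did not pass (adjusted p = 0.35).

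Kcne1 (ENSMUSG00000039639, chromosome 16), the accessory subunit that slows the opening of Kcnq1 channels, had the largest log2 rise of the 40 members in the mean of both sexes. It had 599, 213 and 317 in LCHADD females and 157, 143 and 84.7 in WT females normalised reads, and 251, 234 and 394 in LCHADD males and 41.8, 41.9 and 45.8 in WT males. Every LCHADD library exceeded every WT library, the WT males were the lowest of the groups and close together, and LCHADD female 1 was the highest library. The LCHADD mean was 391% of WT (log2 change 2.08, SE 0.22, adjusted p = 3.4e-06), with a change of 1.46 in females (adjusted p = 0.0021) and 2.69 in males (adjusted p = 4.8e-05). Kcne4, an accessory subunit that inhibits Kcnq1 channels in expression systems, did not pass, with 20.6 to 35.4 in LCHADD libraries and 19.9 to 49.3 in WT libraries. Kcnh7, which shares 4.57% of its exon bases with the opposite-strand gene Gca and is a relative of Kcnh2 best known outside the heart, did not pass either (log2 change -0.38, SE 0.35, adjusted p = 0.41). The other 12 genes of this list, among them Kcne2 and Kcne3, were below the filter.

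The strong inward rectifiers that carry IK1 and hold the resting potential were all measured. Kcnj2 (ENSMUSG00000041695, chromosome 11), the main IK1 pore of the ventricle, had 747, 255 and 767 in LCHADD females, against 1038, 994 and 764 in WT females, and 749, 712 and 742 in LCHADD males, against 945, 714 and 928 in WT males normalised reads. Genotypes overlapped in both sexes, and LCHADD female 2 was far below all others. It did not pass in the mean of both sexes (log2 change -0.51, SE 0.21, adjusted p = 0.061) but passed without LCHADD female 1 or 3, or without LCHADD female 2, when the change was -0.25 (adjusted p = 0.02). Its call in females (-0.81, adjusted p = 0.046) was lost without that library (-0.29, adjusted p = 0.089). Kcnj12 (ENSMUSG00000042529, chromosome 11), the second IK1 pore, whose window is shown above, had 233, 171 and 222 in LCHADD females, against 399.9, 414 and 432 in WT females, and 234, 297 and 234 in LCHADD males, against 404, 344 and 426 in WT males. There the genotypes were separate in both sexes, at 57.5% of the WT mean (log2 change -0.81, SE 0.10, adjusted p = 9.6e-06). Without LCHADD female 2, the lowest library of Kcnj12, the change was -0.74 (limma adjusted p = 8.1e-07).

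Kcnj4 (ENSMUSG00000044216, chromosome 15), another pore of the same subfamily, was low in WT and rose in LCHADD. Its normalised read counts were 48.1, 125 and 43.3 in LCHADD females, against 21.1, 13.9 and 15.4 in WT females, and 71.9, 64.1 and 60.3 in LCHADD males, against 33.9, 19.7 and 16.4 in WT males. All LCHADD libraries exceeded all WT libraries, with LCHADD female 2 the highest (log2 change 1.70, SE 0.26, adjusted p = 9.1e-05; 1.46, adjusted p = 1.6e-05, without it). Kcnj14, the last of the subfamily, had 4.37, 4.85 and 8.45 in LCHADD females, against 16.4, 6.07 and 7.70 in WT females, and 25.0, 33.2 and 20.5 in LCHADD males, against 42.8, 45.6 and 36.3 in WT males. Male libraries were above female libraries within each genotype, and it did not pass between genotypes (log2 change -0.64, SE 0.27, adjusted p = 0.067), but passed without LCHADD female 3 or WT female 2. Per kb the order in LCHADD was Kcnj2, Kcnj12, Kcnj4 and Kcnj14, at 122, 84.3, 32.0 and 5.91. In WT it was Kcnj2, Kcnj12, Kcnj14 and Kcnj4, at 165, 147, 9.51 and 9.33, and Kcnj14 and Kcnj4 lay within each other's spread.

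**Figure D3:**
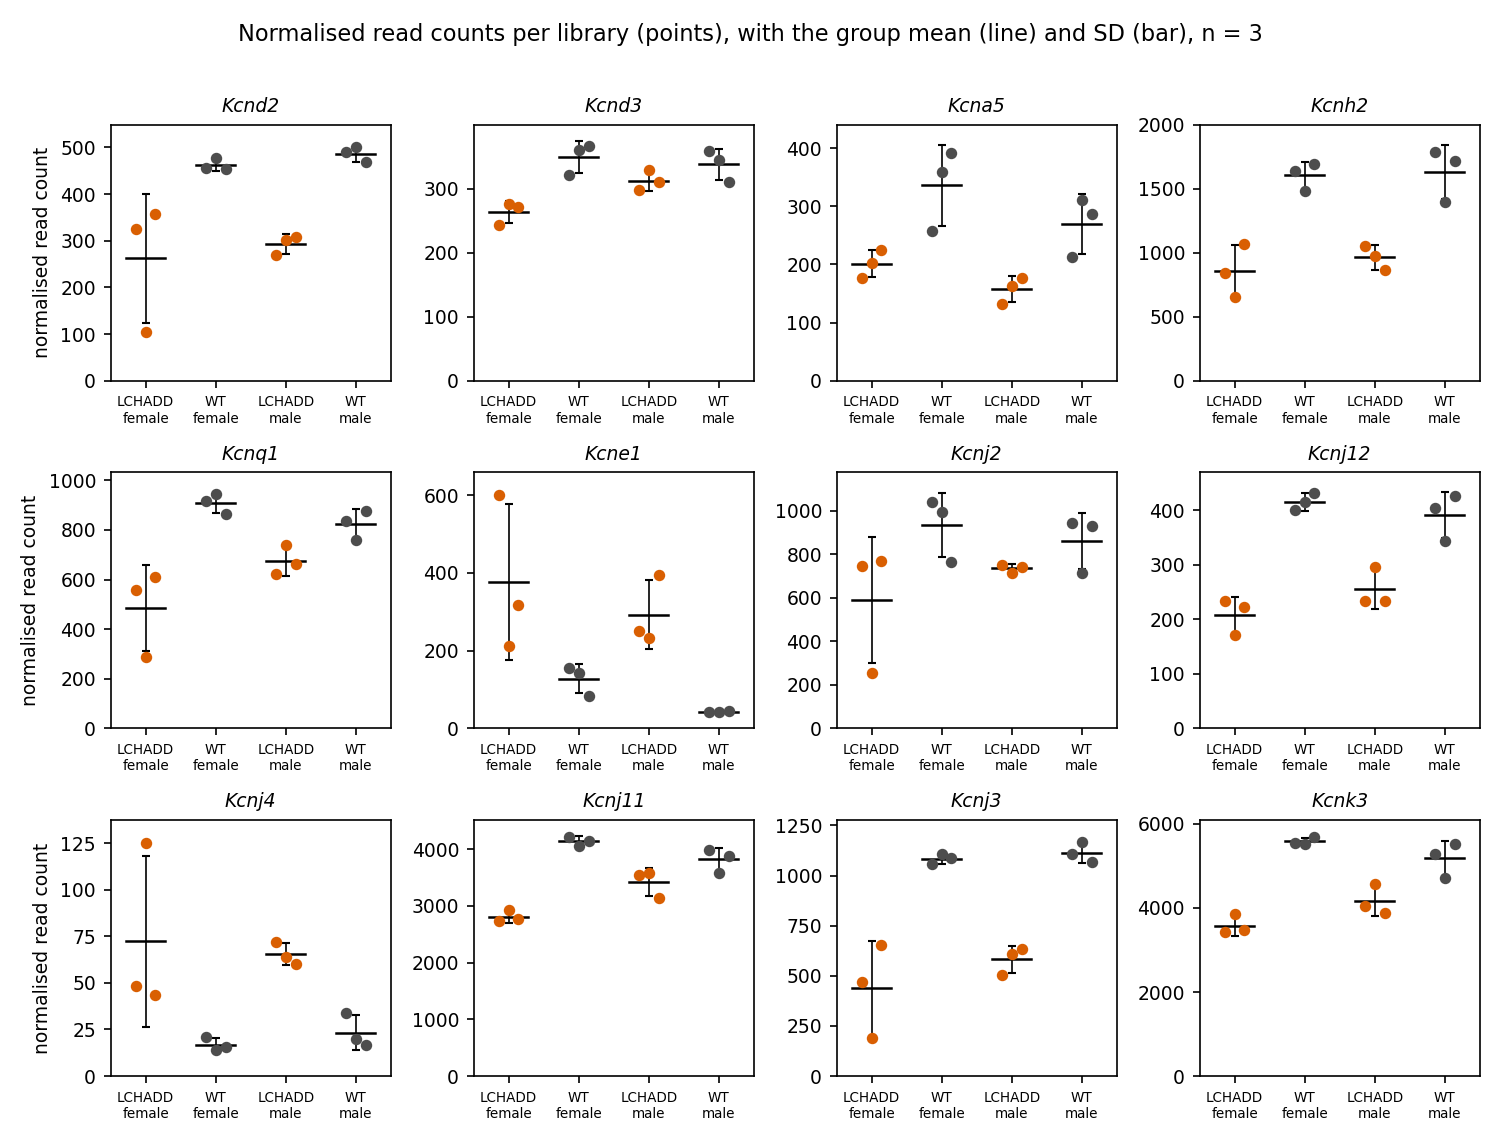
Normalised read counts of 12 potassium channel genes in each library (points), with the group mean (line) and SD (bar), n = 3 per group. Kcne1 and Kcnj4 are higher in every LCHADD library, and LCHADD female 2 is the low point of Kcnd2, Kcnj2, Kcnj3 and Kcnq1.

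ATP-sensitive channels couple the membrane potential to the cell's energy state, and both pore genes were lower in LCHADD. Kcnj11 (ENSMUSG00000096146, chromosome 7), the pore in ventricular myocytes, had 2729.5, 2931 and 2767 in LCHADD females, against 4216, 4047 and 4148 in WT females, and 3541, 3574 and 3144 in LCHADD males, against 3985, 3586 and 3876 in WT males normalised reads. LCHADD libraries were all below WT libraries, at 78.3% of the WT mean over both sexes (log2 change -0.36, SE 0.05, adjusted p = 4.5e-05). The male libraries were separated only narrowly. For Kcnj11 the change was -0.56 in females (limma adjusted p = 2.9e-05) and -0.16 in males, where it did not pass (adjusted p = 0.14). Kcnj8, the pore in vascular smooth muscle and pericytes, had 426, 463 and 463 in LCHADD females, against 565, 522 and 576 in WT females, and 428, 396 and 509 in LCHADD males, against 569.7, 591 and 579 in WT males. It also separated, at 78.9% of WT (log2 change -0.34, SE 0.07, adjusted p = 0.00096). Markers of mural cells moved with it, 6 of 8 tested being lower in the mean of both sexes (3 without WT female 1), against 20.6% of all genes. Their summed level was 12533 to 18731 in LCHADD and 17810 to 20130 in WT, and their part in the result was not tested. The list includes Abcc9, described below, which is known from ventricle as well as vessels and is thus no marker of mural cells alone. Abcc9 is among the 6 lower markers and makes up a large part of the sum, with means of 6245 in LCHADD and 7326 in WT. The sulfonylurea receptor genes lie next to these pore genes, Abcc8 beside Kcnj11 and Abcc9 beside Kcnj8. Abcc8 rose, with 883 ± 64.8 in LCHADD and 760.4 ± 100 in WT (SD, n = 6 each) (log2 change 0.22, SE 0.06, adjusted p = 0.0077). Abcc9, the ventricular and vascular receptor, named for its place beside Kcnj8 after its values were seen, averaged 6245 ± 1223 in LCHADD and 7326 ± 404 in WT (SD, n = 6 each) with overlapping genotypes. It passed narrowly (log2 change -0.26, SE 0.10, adjusted p = 0.046; -0.15, adjusted p = 0.049, without LCHADD female 2, its lowest library), and the call was lost when any one of 8 other libraries was left out (adjusted p from 0.061 to 0.1).

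The acetylcholine-activated current, known mainly from atria and nodes, is carried by tetramers of Kcnj3 and Kcnj5, and both were lower. Kcnj3 (ENSMUSG00000026824, chromosome 2) had 468, 188 and 655 in LCHADD females, against 1058, 1107 and 1089 in WT females, and 506, 607 and 634 in LCHADD males, against 1109, 1168 and 1067 in WT males normalised reads. The WT libraries were close together and all LCHADD libraries lay below them, at 46.4% of the WT mean (log2 change -1.21, SE 0.21, adjusted p = 0.00026; -0.95, adjusted p = 1.6e-08, without LCHADD female 2). An opposite-strand non-coding gene with a median of 2.23 normalised reads covers 31.1% of its exon bases. Kcnj5 had 1633, 1358 and 1679.6 in LCHADD females, against 1893, 1686 and 1898 in WT females, and 1513, 1511 and 1511 in LCHADD males, against 1944, 1799 and 1776 in WT males. LCHADD was again lower in every library, at 83.7% of WT (log2 change -0.26, SE 0.06, adjusted p = 0.0031). Without LCHADD female 2, its lowest library, the change was -0.21 (limma adjusted p = 0.0023). The Kcnj5 call in females (-0.23, adjusted p = 0.046) was lost without that library (-0.14, adjusted p = 0.17), among others. In males, the calls of Kcnj3 (-0.94, limma adjusted p = 0.039) and Kcnj5 (-0.28, adjusted p = 0.036) were lost when any single male library was left out. Atrial markers overlapped between genotypes, whereas 5 of 6 tested conduction system markers were lower in the mean of both sexes, against 20.6% of all genes. The conduction markers summed to 250.5 to 438 in LCHADD and 781 to 980 in WT. Their part in the Kcnj3 result was not tested. Kcnj6 and Kcnj9 were below the filter, and Kcnj6, at 0 to 17.5 over all libraries, passed in the mean of both sexes when the filter was dropped (log2 change 1.91, adjusted p = 0.00898).

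Among the tandem-pore-domain channels, 3 of 6 measured genes were lower and none passed on the higher side, against 20.6% and 20.3% of all genes. The 3 include Kcnk1, which passed the filter through the WT males alone. Kcnk3 (ENSMUSG00000049265, chromosome 5) had 3419.5, 3846 and 3468 in LCHADD females, against 5542, 5523 and 5688 in WT females, and 4046, 4562 and 3891 in LCHADD males, against 5287, 4712 and 5533 in WT males normalised reads. All LCHADD libraries were below all WT libraries, at 72.0% of the WT mean (log2 change -0.48, SE 0.06, adjusted p = 1e-05), though 5.76% of its exon bases also belong to an opposite-strand gene with a median of 440 normalised reads. Kcnk1, a weakly conducting relative, had 0, 0.971 and 0 in LCHADD females, against 4.70, 6.07 and 4.28 in WT females, and 1.04, 3.43 and 0 in LCHADD males, against 31.9, 34.5 and 16.4 in WT males. Of the 6 LCHADD libraries, 5 held at most 1 read, and the WT males held the most. The fitted change (log2 change -2.98, SE 0.45, adjusted p = 8.7e-05) depends on the value added before the logarithm, being -1.61 with 5 and -3.57 with 0.5. As Kcnk1 passed the filter through the WT males alone, its p-value is no independent test of a lower level. Kcnk6, a relative of Kcnk1, had 44.8, 57.3 and 66.5 in LCHADD females, against 72.8, 69.4 and 59.9 in WT females, and 41.7, 45.8 and 46.7 in LCHADD males, against 75.7, 75.2 and 64.0 in WT males. Its genotypes were separate in males only (log2 change -0.47, SE 0.13, adjusted p = 0.01). Kcnk2, a stretch- and lipid-sensitive channel, had 21.9, 14.6 and 14.8 in LCHADD females, against 30.5, 17.3 and 18.0 in WT females, and 31.3, 36.6 and 27.3 in LCHADD males, against 55.8, 41.9 and 31.1 in WT males and did not pass between genotypes (log2 change -0.36, SE 0.21, adjusted p = 0.19). Kcnk5 and Kcnk13 overlapped, at 4.37 to 23.3 in LCHADD libraries and 2.47 to 10.4 in WT libraries for Kcnk5 and 2.19 to 14.8 in LCHADD libraries and 4.93 to 12.9 in WT libraries for Kcnk13.

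Of the calcium- and sodium-activated channels, 1 of 5 measured genes passed in the mean of both sexes, where 20.3% of all genes were higher and 20.6% lower. Kcnn1, a small-conductance calcium-activated channel, averaged 391 ± 28.8 in LCHADD and 331 ± 38.7 in WT (SD, n = 6 each) and was slightly higher (log2 change 0.24, SE 0.08, adjusted p = 0.025). That call was lost without WT female 2 (adjusted p = 0.065), WT female 3 (0.069) or WT male 3 (0.057). Kcnn2, a relative known from atrial myocytes, averaged 132 ± 43.7 in LCHADD and 178 ± 26.5 in WT (SD, n = 6 each) and did not pass (log2 change -0.51, SE 0.20, adjusted p = 0.053). It passed in females (-0.79, adjusted p = 0.042), and this was lost without LCHADD female 2 (-0.36, adjusted p = 0.15), its lowest library at 54.4 normalised reads. Leaving out LCHADD female 1 or 3, WT female 1 or LCHADD male 2 made it pass in the mean of both sexes. Kcnn3, the smooth muscle accessory subunit Kcnmb1 and the sodium-activated Kcnt2 overlapped between genotypes, with log2 changes of -0.31, -0.25 and -0.04. Kcnj15, an inward rectifier known from kidney, overlapped too, at 8.45 to 25.2 in LCHADD libraries and 13.9 to 31.1 in WT libraries. Just inside the filter stood Kcna6 and Kcnk1, at 10 or above in 3 libraries, and just outside it Kcnq5 in 2 and Kcng4 and Kcnj6 in 1. Of the 50 genes below the filter, 14 were at 0 in every library, and besides Kcnj6 one, Kcnu1, passed when the filter was dropped, in females (log2 change 1.56, adjusted p = 0.0393).

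Subunits of the same current did not move in step, which was measured as the log2 ratio of the normalised counts within each library. For 7 pairs, the LCHADD minus WT difference was tested by exact two-sided permutation within sex, where the smallest possible p is 0.005, with adjustment over the 7. The Kcne1 over Kcnq1 ratio was 0.10, -0.43 and -0.95 in LCHADD females against -2.54, -2.71 and -3.33 in WT females, and -1.30, -1.66 and -0.75 in LCHADD males against -4.29, -4.15 and -4.23 in WT males. All LCHADD libraries exceeded all WT libraries (difference 2.71, exact p = 0.005, adjusted p = 0.0117). Kcnj5 over Kcnj3 was likewise higher in every LCHADD library (difference 0.96, exact p = 0.005, adjusted p = 0.0117). Kcnip2, the calcium-binding partner of Kcnd2, averaged 3460.0 ± 649 in LCHADD and 3577 ± 282 in WT (SD, n = 6 each) and did not pass itself (log2 change -0.07, SE 0.11, adjusted p = 0.64; 0.05, adjusted p = 0.62, without LCHADD female 2), and its ratio over Kcnd2 was higher in every LCHADD library (difference 0.80, exact p = 0.005, adjusted p = 0.0117). Kcnd3 over Kcnd2 did not pass after adjustment (difference 0.61, exact p = 0.03, adjusted p = 0.0525), and the difference was 0.31 without LCHADD female 2; it passed without LCHADD female 1 or 3 (0.76 in both). Kcnj12 over Kcnj2 did not pass either (difference -0.30, exact p = 0.215, adjusted p = 0.251) but did without that library (-0.49, exact permutation, adjusted p = 0.00875). The difference was small for Kcnj8 over Kcnj11 (0.01, exact p = 0.91, adjusted p = 0.91).

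**Figure D4:**
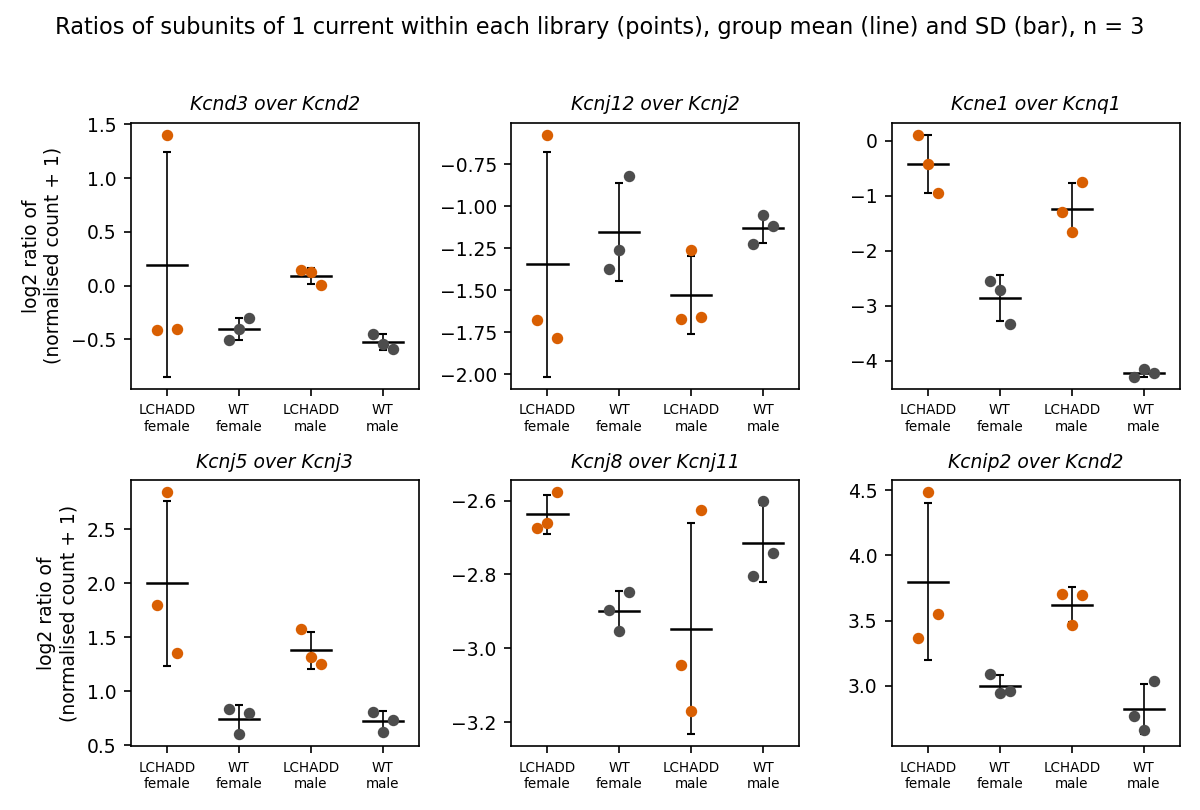
Log2 ratio of paired subunits within each library (points), with group mean (line) and SD (bar), n = 3 per group; axes do not start at 0 because the values are logarithms. Kcne1 over Kcnq1, Kcnj5 over Kcnj3 and Kcnip2 over Kcnd2 are higher in every LCHADD library.

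No member passed the test of whether the genotype effect differed between the sexes, where 0.00721% of all genes passed (limma, interaction of genotype and sex). edgeR gave 0 members and DESeq2 gave 1, Kcnj11 (-0.40, adjusted p = 0.024). At an unadjusted p under 0.05 there were 4 members, Kcne1, Kcnj11, Kcnk3 and Kcnq1, that is 10.0% of members against a background of 9.83%. Their female minus male differences in log2 change were -1.23, -0.40, -0.33 and -0.68, with adjusted p from 0.2 to 0.44. Calls found in a single sex are therefore not shown to differ between the sexes.

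Between females and males, in the mean of both genotypes, 4 of the 40 members passed, against 4.37% of all genes, with 1 higher and 3 lower against backgrounds of 1.89% and 2.48%. Kcnj14 was lower in females, at 7.98 ± 4.43 against 33.9 ± 9.82 in males (SD, n = 6 each), and no female library reached the lowest male library (female minus male log2 change -2.03, SE 0.27, adjusted p = 0.00073). Kcnc1 (log2 change -0.84, SE 0.18, adjusted p = 0.017) and Kcnk2 (log2 change -0.91, SE 0.21, adjusted p = 0.025) were also lower in females, and Kcne1 was higher (log2 change 0.88, SE 0.22, adjusted p = 0.034), all 3 with overlapping sexes. These 3 calls were lost without several single libraries, so that 1 member passed without WT female 2, without LCHADD male 2 or without WT male 2, and 2 passed without WT female 3, LCHADD male 1 or WT male 1. The Kcnj14 call held in each of those fits.

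Genes whose products bind or regulate these channels were read from a list of partners. Of 17 tested partners, 2 were higher and 5 lower in the mean of both sexes, against backgrounds of 20.3% and 20.6% of all genes, with a median log2 change of -0.16. The lower count was 2 without LCHADD male 1, LCHADD male 3, WT female 2 or WT male 3 and 3 without LCHADD female 1, WT female 1 or WT male 1. The higher ones were Abcc8, above, and Akap9, a scaffold of the IKs channel, at 955 ± 80.8 in LCHADD and 814 ± 44.5 in WT (SD, n = 6 each) (log2 change 0.23, SE 0.06, adjusted p = 0.0099). The lower ones included Kcnip1 (-1.06, adjusted p = 0.0075) and Fhl2, a LIM protein of the sarcomere, at 22336 ± 6201 in LCHADD and 32220.0 ± 1564 in WT (SD, n = 6 each) (log2 change -0.59, SE 0.16, adjusted p = 0.0076; -0.39, adjusted p = 6.1e-05, without LCHADD female 2, its lowest library). Actn2, an abundant Z-disc protein, did not pass (-0.15, adjusted p = 0.073) but did without LCHADD female 3 (adjusted p = 0.021).

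Of 17 other genes of potassium transport, 4 were higher and 6 lower, against the same backgrounds of 20.3% and 20.6%. Hcn4, the main pacemaker channel, had 24.1, 33.0 and 25.4 in LCHADD females, against 171, 158 and 181 in WT females, and 46.9, 75.6 and 53.5 in LCHADD males, against 264, 223 and 234 in WT males normalised reads. It was lower in every LCHADD library (log2 change -2.32, SE 0.13, adjusted p = 9e-09), while Hcn2, the main ventricular member of that family, averaged 632 ± 85.0 in LCHADD and 339 ± 45.0 in WT (SD, n = 6 each) and was higher in every one (log2 change 0.89, SE 0.10, adjusted p = 4.3e-06). Fxyd1, the phospholemman that regulates the sodium-potassium pump, fell (log2 change -0.43, SE 0.05, adjusted p = 3.4e-06). Atp1b3, a beta subunit of that pump, rose (0.34, adjusted p = 0.00014).

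Of 15 transcription factors known to act on potassium channel or conduction genes in mouse hearts, 7 were lower and 0 higher in the mean of both sexes (limma, Benjamini-Hochberg), where 20.6% of all genes were lower and 20.3% higher. At an unadjusted p under 0.05, 2 were higher, Clock and Tbx20, of which Clock passed without LCHADD female 3 (adjusted p = 0.0054). Tbx5, a regulator of conduction genes, averaged 301 ± 42.5 in LCHADD and 539 ± 35.1 in WT (SD, n = 6 each) and was lower in every LCHADD library (log2 change -0.85, SE 0.09, adjusted p = 2.2e-06). So were Hey2 (-0.93, adjusted p = 7.9e-05), a repressor active in the compact ventricular wall, and Etv1 (-0.92, adjusted p = 0.00023), a factor of fast-conducting myocytes. Arntl, a clock factor, fell with overlap (-0.99, adjusted p = 0.00082). The abundant cardiac factors Gata4 (0.00, adjusted p = 0.97) and Tbx20 (0.16, adjusted p = 0.061) did not pass. Tbx20 passed without LCHADD female 2 (0.22, adjusted p = 0.0038), without WT female 2 (adjusted p = 0.03) and when libraries were scaled by their reads on nuclear genes (adjusted p = 0.018).

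Markers of other cell types also moved. Of the tested markers, 5 of 7 endothelial, 6 of 7 fibroblast, 2 of 4 Schwann cell and neuron and 5 of 5 erythroid genes were lower in the mean of both sexes. Of all genes, 20.6% were lower there. Among 6 macrophage genes, 0 passed in limma, against 1 at an unadjusted p under 0.05 and 1 that passed without LCHADD female 2. Neuronal marker sums were 38.6 to 70.8 normalised reads in LCHADD and 130 to 169 in WT, with Th at 0 in every library, and channels best known from neurons such as Kcna2 moved with them while Kcnc1 did not. Skeletal muscle markers other than Ckm were below the filter. The part of these cell types in the potassium channel results was not tested.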

How the data were processed

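Total RNA of 12 mouse ventricle samples was sequenced on a NovaSeq instrument, per the labels' protocols. The submitters' processing notes name bcl2fastq, DESeq2 and build GRCm39. No aligner, counter, annotation or strandedness is given in the sources used here, so reads of overlapping genes cannot be told apart. The deposited values are a signal, namely read counts that the authors divided by 1 size factor per library: every value times its library's factor was whole within 0.01, so reads and depth were recovered. Depth limits counting precision for members near the filter.

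Symbols, lengths and gene types came from GENCODE vM21 (51719 of 51912 IDs matched). The main test was limma 3.58.1 (R 4.3.3) with 4 group means on log2(value + 1), genes at 10 or above in 3 libraries, Benjamini-Hochberg over 13865 genes, adjusted p under 0.05; fold changes of low genes are understated on this scale. Pair ratios were tested by exact permutation. Alternatives were added values of 5 and 0.5, no filter, a filter at 50, TMM, upper-quartile and nuclear-read scaling, edgeR 4.0.16, DESeq2 1.42.0, single-sex fits, a replicate block, leaving out libraries, a 1.5-fold limit and adjusted p under 0.01. Same-numbered libraries did not deviate together. The code was tested on simulated data. Members, lists, pairs and tests were chosen with earlier results of these data known. Values per library are given for the subunits of the main currents, the 10 other members with the smallest adjusted p and those that passed by sex. A few members, and 1 of the 7 pair ratios, are counted in the totals and not reported here by name.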

Additional observations from a re-analysis of the deposited data

How the results depend on the processing

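The count of members that passed in the mean of both sexes, 24, was 16 to 25 under the alternatives that keep all libraries and 22 to 27 when single libraries were left out. In females, 22, it was 14 at an adjusted p under 0.01, 16 to 22 without single libraries and 16 with only the female libraries in the fit. In males, 15, it was 9 at an adjusted p under 0.01 and 8 to 17 without single libraries, the 8 without LCHADD male 1. With only the male libraries in the fit it was 19, so the order of the sexes by count changed with the fit. For the interaction DESeq2 gave 1 and leaving out libraries 0. Between the sexes, 4 became 1 at an adjusted p under 0.01 and 1 to 5 without single libraries. With a filter at 50 it was 2, as only 23 members were tested there and Kcnj14 and Kcnk2 were left out.

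A replicate block, with the library number within each sex as the block, gave 20 members in females, 14 in males, 24 in the mean and 0 for the interaction; it could not be fitted between the sexes. Numbers did not pair the libraries, with correlations of deviations from -0.054 to 0.031 for same-numbered pairs. Under the block the ratios Kcne1 over Kcnq1 (2.71), Kcnj5 over Kcnj3 (0.96) and Kcnip2 over Kcnd2 (0.80) did not pass (exact permutation, adjusted p = 0.0729), in a design of 64 sign arrangements. Each had the smallest exact p that this design allows, since all its LCHADD libraries exceeded all WT libraries. That p could not pass after adjustment here, so the block could not decide on these ratios. Without single libraries they ranged from 2.58 to 2.84, 0.74 to 1.12 and 0.63 to 0.91, in that order. Kcnd3 over Kcnd2 passed with an added value of 5 (0.60), without LCHADD female 1 or 3 (0.76 in both) and without both WT female 3 and LCHADD female 2 (0.33), and ranged from 0.31 to 0.76 without single libraries. Kcnj12 over Kcnj2 passed without both (-0.41) and ranged from -0.49 to -0.19. Kcnj8 over Kcnj11 ranged from -0.065 to 0.071, changing sign without LCHADD female 3 (-1.8e-05), LCHADD male 3 (-0.065) or WT male 1 (-0.0072). Without single libraries, members that did not pass changed sign as follows: Kcnk13 ranged from -0.045 (without LCHADD female 3) to 0.53 and Kcnt2 from -0.10 to 0.054 (without WT male 2), with 0.025 without WT female 2. The cause was not tested.

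Counts over all genes moved as follows. In males 2146 became 3342 with males alone, 3293 without LCHADD female 2 and 3317 without both WT female 3 and LCHADD female 2. It was 1317 without LCHADD male 1 or WT male 3, 1332 without WT male 1, 1087 with the 1.5-fold limit and 1018 at an adjusted p under 0.01. In females 4692 became 2461 and 2935 under these 2 limits, and in the mean 5661 became 2033 with the fold limit. For the interaction 1 gene became 101 with DESeq2 and 0 to 186 without single libraries, the 186 without LCHADD female 3 and 69 without LCHADD male 3. Between the sexes 606 became 157 with the fold limit, 185 at an adjusted p under 0.01 and 282 to 1332 without single libraries, the 1332 without LCHADD female 3 and the 282 without LCHADD male 2. With 3 libraries a group, small changes of low members were not detectable. The alternatives for genes outside the members were added after the data were seen.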
